A study of Mus musculus with 6 samples.

Results

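The genes described here carry peptides to CD4 T cells on MHC class II molecules, and their transcripts were measured in Treg cells that lacked Foxo1, carried an active form of it, or both. The set was named gene by gene: H2-Aa, H2-Ab1, H2-Eb1, H2-Ob, H2-Oa, H2-DMa, H2-DMb1, H2-DMb2, Cd74 and Ciita, 10 genes in all. Every probe set listed to one of these symbols was taken, which gave 22 of the 45101 probe sets on the array. Of these, 19 name 1 gene, and they cover 9 of the 10 members among 18194 genes with a probe set of their own. The other 3 name several genes: 2 name H2-DMb2 and H2-DMb1 together, and 1 names H2-Ob and the noncoding RNA gene Gm20506. H2-DMb1 had no probe set of its own, and the shared probe sets are assigned to neither gene. H2-Ob was chosen by its log2 difference between Foxo1KO and WT, where it was low in the knockout. All differences of members in that comparison are therefore descriptions without a test.

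Treg cells are CD4 T cells that restrain immune responses, and Foxo1 is a forkhead transcription factor that Akt phosphorylation removes from the nucleus. The samples, labelled nTreg, were sorted from C57BL/6 mice and hybridised singly to 6 arrays in 4 groups. These were knockout mice that also carried the constitutively active Foxo1AAA (Foxo1KO/Foxo1AAA, 1 array), mice with Foxo1AAA alone (1 array), Foxo1 knockout mice (Foxo1KO, 2 arrays) and wild-type mice (WT, 2 arrays). What drove the deletion and Foxo1AAA, how the cells were gated, and the age and pooling of the mice are not given in the sources used here. Whether each array held 1 mouse or a pool is not stated either, and p-values measure only the spread between these arrays.

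Classical class II molecules pair an alpha chain with a beta chain, here H2-Aa with H2-Ab1, and H2-Eb1 encodes the beta chain of the E molecule, whose alpha chain gene is defective in C57BL/6 mice. New pairs travel with the invariant chain, the product of Cd74, to endosomes, where H2-DM (H2-DMa with H2-DMb1 or H2-DMb2) exchanges the invariant chain remnant for peptide. H2-O (H2-Oa with H2-Ob) binds H2-DM and restrains it. Ciita is the coactivator that class II promoters require. These genes are best known from B cells, dendritic cells and macrophages, and mouse T cells are usually described as having little class II.

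Values are log2 signals, so a difference of 1 is a 2-fold change. Because probes differ in brightness, levels are compared between arrays for a probe set and not between genes. A probe set is called dim below 6.36, the median of all probe sets, and a difference that involves a dim value may be understated. Over all probe sets, the arrays with Foxo1AAA had a correlation of 0.994, against 0.971 to 0.980 between either of them and the 4 arrays without it. The replicates of Foxo1KO and of WT had a correlation of 0.996 in either group. The brightest Foxo1 probe set measured 9.66 in Foxo1KO/Foxo1AAA, 10.71 in Foxo1AAA, 10.87 and 10.65 in Foxo1KO, and 11.03 and 11.35 in WT, and the deleted part is not given, so this does not show how complete the deletion was. Transcripts linked to sex also differed: Xist and the Y-linked Eif2s3y measured 6.27 and 10.56 in Foxo1KO/Foxo1AAA and 6.04 and 10.59 in Foxo1AAA. Replicate 1 of Foxo1KO (13.14 and 4.05) and of WT (13.43 and 3.91) had high Xist alone, whereas replicate 2 of Foxo1KO (12.59 and 9.91) and of WT (12.03 and 10.09) had both transcripts. The replicates of a group were therefore not the same RNA, and low Xist went with Foxo1AAA, so that sex and Foxo1AAA cannot be told apart in comparisons of arrays with and without Foxo1AAA. Of the markers of the labelled cell type, Cd4 lay between 9.28 and 9.70, Il2ra between 11.15 and 11.48 and Ikzf2 between 13.26 and 13.63 on the 6 arrays, whereas the only probe set of Foxp3 was dim on all of them (5.10 to 5.58).

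H2-Ob, the beta chain of H2-O, was dim in the knockout and bright everywhere else. Its own probe set measured 9.45 in Foxo1KO/Foxo1AAA, 9.70 in Foxo1AAA, 5.50 and 4.62 in Foxo1KO, and 8.96 and 9.06 in WT. Both Foxo1KO arrays were dim and lay below all 4 others, and both arrays with Foxo1AAA lay above both WT arrays. The order of the group levels was Foxo1AAA, Foxo1KO/Foxo1AAA, WT (9.01 ± 0.07) and Foxo1KO (5.06 ± 0.62, SD, n = 2 each for the last 2). As descriptions, the log2 difference was -3.95 for Foxo1KO minus WT, 4.39 for Foxo1KO/Foxo1AAA minus Foxo1KO and 0.69 for Foxo1AAA minus WT. With either Foxo1KO array left out, the first of these was -4.39 or -3.51. The probe set shared with Gm20506 was also lowest in Foxo1KO, over a narrower range, with 7.71 in Foxo1KO/Foxo1AAA, 7.60 in Foxo1AAA, 6.85 and 6.46 in Foxo1KO, and 7.13 and 7.38 in WT. Here Foxo1KO/Foxo1AAA, and not Foxo1AAA, was the highest.

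**Figure D1:**
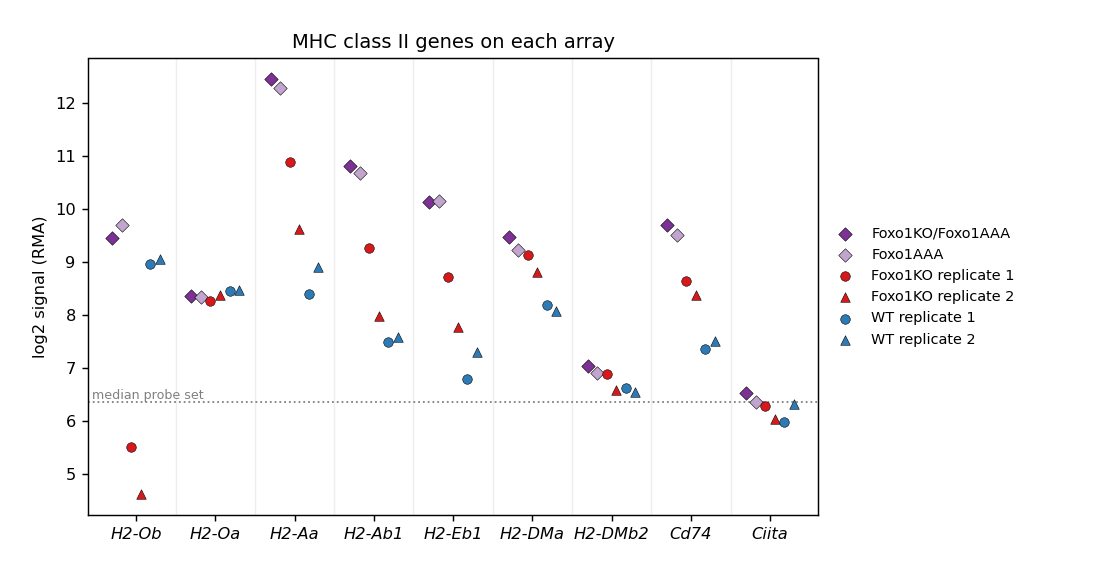
Log2 signal (vertical axis) of the brightest probe set of each of the 9 genes with a probe set of their own, with 1 point for each array. H2-Ob sits at 5.50 and 4.62 in Foxo1KO and at 8.96 or more on every other array, whereas H2-Aa, H2-Ab1, H2-Eb1 and Cd74 are highest on the 2 arrays with Foxo1AAA and lowest in WT.

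With Foxo1AAA present, the knockout difference of H2-Ob was small and was not called. Between Foxo1KO/Foxo1AAA and Foxo1AAA, arrays that played no part in choosing H2-Ob, its log2 difference was -0.25 (SE 0.33, limma adjusted p = 0.83, 1 array each), with a 95% interval of -1.01 to 0.50. The interval leaves out a fall of the size seen between Foxo1KO and WT, but it borrows its spread from the WT and Foxo1KO pairs. Whether the 2 knockout differences of H2-Ob differ from each other was not tested, since one of them chose the gene.

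H2-Oa, the partner chain of H2-Ob, did not share this pattern. Its probe set measured 8.35 in Foxo1KO/Foxo1AAA, 8.34 in Foxo1AAA, 8.26 and 8.37 in Foxo1KO, and 8.46 and 8.48 in WT. All 6 values lay between 8.26 and 8.48, although both Foxo1KO values were under both WT values. Foxo1KO minus WT was -0.15, against -3.95 for H2-Ob. Neither Foxo1AAA minus WT (-0.13, SE 0.12, limma adjusted p = 0.46) nor Foxo1KO/Foxo1AAA minus Foxo1KO (0.03, SE 0.12, adjusted p = 0.86) was called.

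The sequence before the transcription start is shown for these partner genes and for 2 classical genes, because H2-Ob and the classical genes lie side by side and differ in pattern. The sequences are the 250 bases before the start in the RefSeq promoter table for GRCm38.p6, read along each gene's strand. They lie at chr17:34238655-34238904 (plus strand) for H2-Ob, chr17:34092129-34092378 (plus) for H2-Oa, chr17:34305617-34305866 (plus) for H2-Eb1 and chr17:34287824-34288073 (minus) for H2-Aa. Capitals mark matches, on either strand, to GTAAACA (a Foxo site), ATAAACA (a forkhead variant), GCAACNNAT (letters like the X box of class II promoters) and CCAAT (the Y box, ATTGG when read on the other strand). These motifs were picked with the sequences in view.
H2-Ob: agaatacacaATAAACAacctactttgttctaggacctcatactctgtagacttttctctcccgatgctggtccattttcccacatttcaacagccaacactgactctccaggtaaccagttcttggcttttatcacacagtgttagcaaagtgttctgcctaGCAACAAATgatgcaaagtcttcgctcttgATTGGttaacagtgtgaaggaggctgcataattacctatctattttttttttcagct
H2-Oa: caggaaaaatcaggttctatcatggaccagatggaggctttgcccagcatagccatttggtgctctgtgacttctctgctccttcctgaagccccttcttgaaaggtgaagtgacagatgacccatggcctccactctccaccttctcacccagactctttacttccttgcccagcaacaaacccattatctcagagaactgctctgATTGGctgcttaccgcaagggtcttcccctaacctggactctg
H2-Eb1: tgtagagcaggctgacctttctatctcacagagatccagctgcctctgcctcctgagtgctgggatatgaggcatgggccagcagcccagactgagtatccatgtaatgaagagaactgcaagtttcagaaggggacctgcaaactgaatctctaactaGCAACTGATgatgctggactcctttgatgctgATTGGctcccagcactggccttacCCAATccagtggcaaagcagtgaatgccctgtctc
H2-Aa: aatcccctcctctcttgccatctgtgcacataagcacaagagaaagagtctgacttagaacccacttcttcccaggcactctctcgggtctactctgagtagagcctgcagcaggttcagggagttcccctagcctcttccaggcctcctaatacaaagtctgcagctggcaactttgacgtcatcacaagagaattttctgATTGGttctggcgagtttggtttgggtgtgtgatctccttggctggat

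The H2-Ob promoter held X-box-like letters from base -87 to -79 and a CCAAT box from -57 to -53, close to their places in H2-Eb1 (-91 to -83 and -59 to -55). It also held ATAAACA from -240 to -234, the only such match among the 8 promoter entries searched, which cover 7 of the members. None of the 8 held GTAAACA. Entries on chromosome 18, where Cd74 lies, were left out of the search of members, and H2-Ab1 and Ciita had no entry. Among all 32851 promoter entries, 1.48% held the X-box-like letters, 33.8% a CCAAT box, 4.16% ATAAACA and 3.17% GTAAACA in the same 250 bases. In all, 3 spellings of the X box were tried, and GCAACNNAT was kept after the shares of the others had been seen. The first, of 11 letters, matched in H2-Ob, H2-Eb1 and H2-DMb1 and in 0.715% of all entries. The second, AGNAACNNA, matched in these genes and H2-Oa and in 14.4% of all entries, so which members hold the box depends on the spelling. A match describes letters in this window and is not evidence of binding.

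The classical chains behaved in another way than H2-Ob: they were highest on both arrays with Foxo1AAA, lowest in WT, and between these in Foxo1KO. The brightest of 4 H2-Aa probe sets measured 12.45 in Foxo1KO/Foxo1AAA, 12.28 in Foxo1AAA, 10.89 and 9.63 in Foxo1KO, and 8.40 and 8.90 in WT. H2-Ab1, in the brightest of its 3 probe sets, measured 10.82 in Foxo1KO/Foxo1AAA, 10.68 in Foxo1AAA, 9.27 and 7.98 in Foxo1KO, and 7.49 and 7.59 in WT. For H2-Eb1 the single probe set measured 10.14 in Foxo1KO/Foxo1AAA, 10.16 in Foxo1AAA, 8.71 and 7.77 in Foxo1KO, and 6.79 and 7.31 in WT. In all 3 genes the groups were separate in these probe sets, and Foxo1KO replicate 1 stood well above replicate 2.

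Classical class II transcripts were higher in Foxo1AAA than in WT. H2-Aa rose by 3.63 in Foxo1AAA relative to WT (SE 0.42, limma adjusted p = 0.0010), and its other 3 probe sets rose by 3.39, 3.20 and 3.29. The last of these, the dimmest, lost its call when the prior on the spread was made robust (adjusted p = 0.19, lowest 3.1e-04 among the alternatives). H2-Ab1 rose by 3.14 (SE 0.40, adjusted p = 0.0016) and by 3.03 and 1.94 in its other probe sets, and H2-Eb1 rose by 3.11 (SE 0.34, adjusted p = 7.8e-04). Each of these probe sets was also higher in Foxo1KO/Foxo1AAA than in Foxo1KO, by 2.19 (SE 0.42, adjusted p = 0.0061) in the brightest of H2-Aa, 2.20 (SE 0.40, adjusted p = 0.0049) in that of H2-Ab1 and 1.90 (SE 0.34, adjusted p = 0.0046) in H2-Eb1. The dimmest H2-Aa probe set was the exception without a call (1.65, adjusted p = 0.078). It was called under 4 alternatives, at 2.69 without Foxo1KO replicate 1 (adjusted p = 4.6e-04) and 0.61 without Foxo1KO replicate 2 (0.030), at 1.73 with centred arrays (0.043) and at 1.65 with the replicate block (0.038), and its adjusted p reached 0.41 in another. With a robust prior the calls of the 2 brightest H2-Aa probe sets (adjusted p = 0.072 and 0.076, ranges 0.0017 to 0.072 and 0.0018 to 0.076) and of the brightest of H2-Ab1 (0.054, range 4.5e-04 to 0.054) ended too. Both arrays with Foxo1AAA had low Xist (6.27 and 6.04) and the 4 others had high Xist (12.03 to 13.43), so sex and Foxo1AAA cannot be told apart here. Each comparison shares 2 arrays with the one that chose H2-Ob, and each rests on 1 array with Foxo1AAA, assumed to vary like the replicated groups. Macrophage markers, described further on, also differed: their summed linear signal was 13654 in Foxo1KO/Foxo1AAA and 11311 in Foxo1AAA, against 1724 and 1233 in Foxo1KO and 1008 and 1285 in WT, and their part in the class II values was not tested.

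Without Foxo1AAA, the classical genes were on average higher in Foxo1KO than in WT, while H2-Ob was lower. The log2 differences were 1.61, 1.37, 0.59 and 1.64 for the 4 H2-Aa probe sets from brightest to dimmest, 1.09, 0.33 and 0.21 for H2-Ab1, and 1.18 for H2-Eb1. Much of their size came from 1 array. Without Foxo1KO replicate 1 the H2-Aa differences were 0.98, 0.73, 0.01 and 0.61, those of H2-Ab1 were 0.44, -0.16 and -0.29, and that of H2-Eb1 was 0.71. Without Foxo1KO replicate 2 they were 2.24, 2.02, 1.16 and 2.68 for H2-Aa, 1.73, 0.83 and 0.72 for H2-Ab1, and 1.65 for H2-Eb1. Without WT replicate 1 the dimmest H2-Ab1 probe set differed by 0.04, and without WT replicate 2 by 0.39. The Foxo1KO arrays overlapped the WT arrays in 3 of these 8 probe sets, namely the H2-Aa probe set with a difference of 0.59 and the 2 dimmer ones of H2-Ab1. Foxo1KO replicate 1 also had more signal from the B cell gene Ms4a1 than replicate 2 (8.32 and 6.25), and the part of such cells was not tested.

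Cd74, the invariant chain gene, followed the classical chains, with a smaller span and closer replicates. It measured 9.69 in Foxo1KO/Foxo1AAA, 9.51 in Foxo1AAA, 8.65 and 8.37 in Foxo1KO, and 7.35 and 7.51 in WT. No group's values lay within another's. Cd74 rose by 2.08 in Foxo1AAA relative to WT (SE 0.15, limma adjusted p = 1.1e-04) and by 1.18 in Foxo1KO/Foxo1AAA relative to Foxo1KO (SE 0.15, adjusted p = 0.0011). Foxo1KO minus WT was 1.08, and 0.94 to 1.22 with any 1 replicate left out.

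The H2-DM genes, which encode the peptide exchanger, moved less, and their probe sets did not all agree. The brighter H2-DMa probe set measured 9.47 in Foxo1KO/Foxo1AAA, 9.23 in Foxo1AAA, 9.14 and 8.81 in Foxo1KO, and 8.19 and 8.08 in WT. It rose by 1.10 in Foxo1AAA relative to WT (SE 0.16, limma adjusted p = 0.0027) and by 0.50 in Foxo1KO/Foxo1AAA relative to Foxo1KO (SE 0.16, adjusted p = 0.042). The second call was lost when Foxo1KO replicate 2 was left out (0.33, adjusted p = 0.14), and over the alternatives its adjusted p lay between 0.018 and 0.14. The other H2-DMa probe set ran differently, with 6.75 in Foxo1KO/Foxo1AAA, 6.42 in Foxo1AAA, 7.51 and 7.33 in Foxo1KO, and 6.65 and 6.65 in WT. It fell by 0.67 in Foxo1KO/Foxo1AAA relative to Foxo1KO (SE 0.13, adjusted p = 0.0064) and was not called in Foxo1AAA relative to WT (-0.23, adjusted p = 0.24). The 2 H2-DMa probe sets agreed in Foxo1KO minus WT (0.84 and 0.77). RefSeq gives H2-DMa (34119693 to 34139101 on chromosome 17 of GRCm38.p6) a span that overlaps that of Brd2 (34112019 to 34122814). Whether the probes of either H2-DMa probe set lie in the overlap was not examined. The brightest Brd2 probe set differed by -0.10 in Foxo1KO minus WT and by 0.74 in Foxo1KO/Foxo1AAA minus Foxo1KO, and a part of Brd2 in the H2-DMa values was not tested.

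H2-DMb2 had 3 probe sets of its own, all between 5.67 and 7.54. The brightest of them barely moved, at 7.03 in Foxo1KO/Foxo1AAA, 6.91 in Foxo1AAA, 6.88 and 6.59 in Foxo1KO, and 6.62 and 6.55 in WT, and was called in no tested comparison. The dimmest measured 7.38 in Foxo1KO/Foxo1AAA, 7.43 in Foxo1AAA, 6.65 and 6.09 in Foxo1KO, and 5.67 and 5.88 in WT. It rose by 1.65 in Foxo1AAA relative to WT (SE 0.21, limma adjusted p = 0.0016) and by 1.01 in Foxo1KO/Foxo1AAA relative to Foxo1KO (SE 0.21, adjusted p = 0.0088). The remaining one rose by 1.18 in Foxo1AAA relative to WT (adjusted p = 0.033), a call lost without WT replicate 1 (0.98, adjusted p = 0.071) and with a robust prior (adjusted p = 0.084, lowest 0.012 among the alternatives). Of the 2 probe sets shared by H2-DMb2 and H2-DMb1, the brighter measured 7.90 in Foxo1KO/Foxo1AAA, 7.36 in Foxo1AAA, 6.64 and 6.32 in Foxo1KO, and 5.91 and 6.08 in WT. Both shared probe sets rose in Foxo1AAA relative to WT, by 1.36 and 1.86, and in Foxo1KO/Foxo1AAA relative to Foxo1KO, by 1.42 and 1.38, with adjusted p of 5.2e-04 to 0.0020 in the 4 tests.

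Ciita, the coactivator of class II promoters, lay near or below the median probe set throughout. Its brightest probe set measured 6.53 in Foxo1KO/Foxo1AAA, 6.35 in Foxo1AAA, 6.28 and 6.03 in Foxo1KO, and 5.98 and 6.32 in WT, and was not called in any tested comparison. The second measured 5.98 in Foxo1KO/Foxo1AAA, 6.11 in Foxo1AAA, 5.38 and 5.05 in Foxo1KO, and 5.25 and 4.93 in WT. It rose by 1.02 in Foxo1AAA relative to WT (SE 0.18, limma adjusted p = 0.0063) and by 0.76 in Foxo1KO/Foxo1AAA relative to Foxo1KO (SE 0.18, adjusted p = 0.014). This last call was lost when Foxo1KO replicate 2 was left out (0.60, adjusted p = 0.069, lowest 0.0058 among the alternatives). The third stayed between 4.34 and 4.71, and it was called in Foxo1AAA relative to WT only when arrays were centred on their medians (0.42, adjusted p = 0.040). All 3 were dim on at least 5 of the 6 arrays, and no detection calls were used, so the size of their differences is uncertain.

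Counted over the set, 15 of the 20 probe sets that do not name H2-Ob rose in Foxo1AAA relative to WT and 0 fell. Of all probe sets, 23.6% were called there, 10.4% higher and 13.2% lower. Their median difference was 1.76, against -0.06 over all probe sets. In Foxo1KO/Foxo1AAA relative to Foxo1KO, 13 of the 20 rose and 1 fell, the second H2-DMa probe set. Of all probe sets, 30.7% were called there, 14.4% higher and 16.2% lower. The median was 1.28, against -0.06 over all. On 18 of the 20, both arrays with Foxo1AAA lay above the 4 arrays without it, an order that 19.2% of all probe sets had, the exceptions being H2-Oa and the second H2-DMa probe set. Probe sets of 1 gene, and genes of this family, are not independent of each other.

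**Figure D2:**
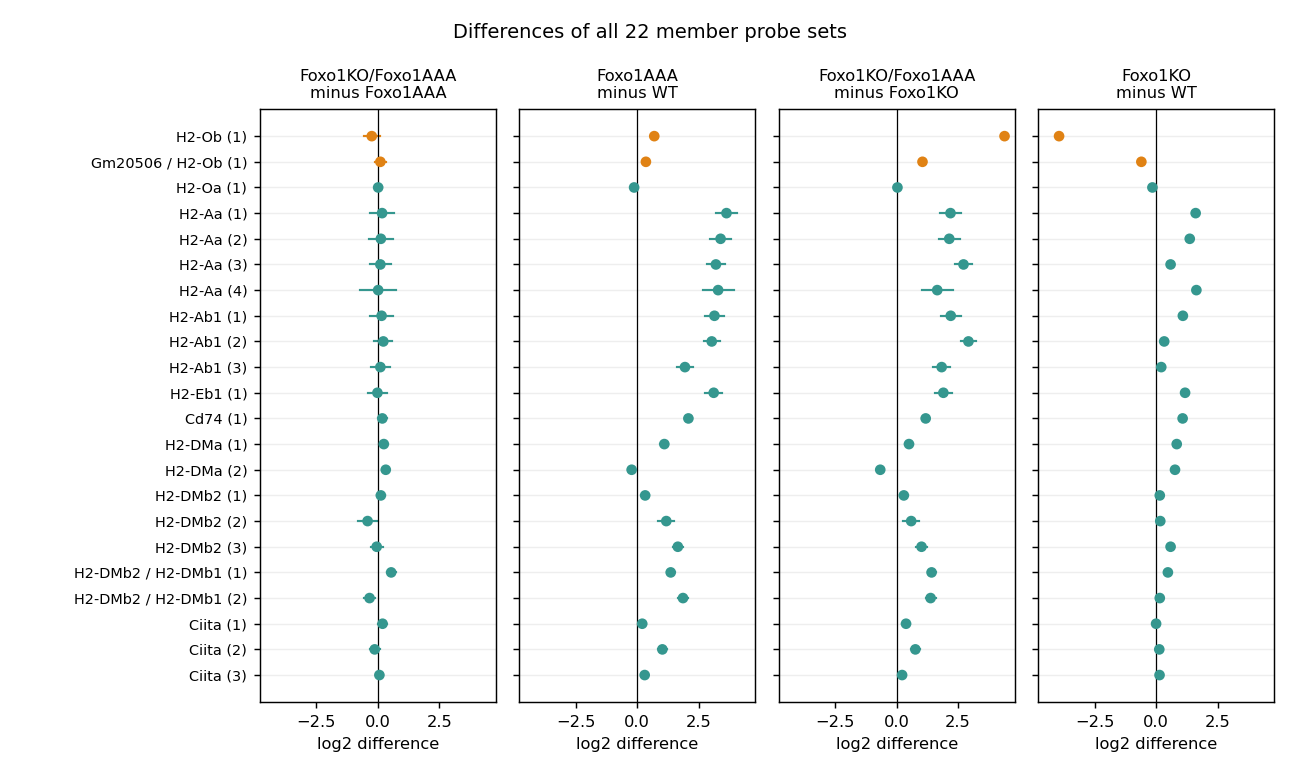
Log2 difference (horizontal axis) of all 22 member probe sets in the 4 comparisons, with the SE of the fit as a bar where a test was made. Numbers in brackets rank the probe sets of a symbol from bright to dim, and the 2 that name H2-Ob are orange. The H2-Ob probe set stands at -3.95 in Foxo1KO minus WT and 4.39 in Foxo1KO/Foxo1AAA minus Foxo1KO, whereas all 22 lie within -0.42 to 0.54 in Foxo1KO/Foxo1AAA minus Foxo1AAA.

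In Foxo1KO minus WT, which chose H2-Ob, 19 of the other 20 probe sets had a positive difference, with a median of 0.53 (0.01 over all probe sets). Without Foxo1KO replicate 1 the count was 13 of 20 and the median 0.21, and without Foxo1KO replicate 2 they were 19 and 0.84. Both Foxo1KO arrays lay above both WT arrays on 11 of the 20 and below them on 1, H2-Oa, orders that 27.2% and 25.6% of all probe sets had. In that comparison 13.7% of all probe sets were called, 5.37% higher and 8.34% lower. Foxo1KO replicate 1 was above replicate 2 on 21 of the 22 member probe sets, H2-Ob included, and on 47.5% of all probe sets. H2-Oa was the exception.

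Between the 2 arrays with Foxo1AAA, the loss of endogenous Foxo1 went with no called change of a class II probe set. Of 22 member probe sets, limma called 0 in Foxo1KO/Foxo1AAA relative to Foxo1AAA, and 0.0554% of all probe sets were called. At an unadjusted p under 0.05 there was 1 of the 22 member probe sets, where 6026 of all 45101 probe sets were under it. This member was the brighter probe set shared by H2-DMb2 and H2-DMb1 (0.54, SE 0.18, adjusted p = 0.25, 95% interval 0.12 to 0.96). For the brightest H2-Aa probe set the difference was 0.17, with an interval of -0.93 to 1.27, so a 2-fold change of H2-Aa between these arrays could not be told from none. The intervals were narrower for Cd74 (0.18, -0.23 to 0.58) and H2-Oa (0.01, -0.31 to 0.34).

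Markers of other cells moved with the classical class II genes. Of 9 macrophage and monocyte markers, 8 rose in Foxo1AAA relative to WT (10.4% of all probe sets) and 0 fell, with a median of 3.34, and 8 rose in Foxo1KO/Foxo1AAA relative to Foxo1KO (14.4%), with a median of 3.17. C1qb, a complement component that macrophages secrete, measured 11.32 in Foxo1KO/Foxo1AAA, 11.00 in Foxo1AAA, 7.09 and 6.27 in Foxo1KO, and 6.14 and 6.51 in WT. Csf1r, the receptor for macrophage colony-stimulating factor, measured 12.38 in Foxo1KO/Foxo1AAA, 11.99 in Foxo1AAA, 9.12 and 8.52 in Foxo1KO, and 8.36 and 8.93 in WT. None of the 9 was dim on all arrays. Cd14 was the 1 marker called between the arrays with Foxo1AAA, higher by 1.49 in Foxo1KO/Foxo1AAA than in Foxo1AAA (limma adjusted p = 0.024), where 0.0377% of all probe sets rose.

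B cell markers also moved. Of 11 measured, 7 rose in Foxo1AAA relative to WT and 5 in Foxo1KO/Foxo1AAA relative to Foxo1KO, and 0 fell in either, where 10.4% and 14.4% of all probe sets rose. Ms4a1, which encodes CD20, measured 9.06 in Foxo1KO/Foxo1AAA, 9.65 in Foxo1AAA, 8.32 and 6.25 in Foxo1KO, and 6.52 and 7.23 in WT. Thus Ms4a1, like H2-Aa, was higher on Foxo1KO replicate 1 than on replicate 2. Its rise in Foxo1KO/Foxo1AAA relative to Foxo1KO was not called (1.78, SE 0.66). Pax5 (-0.03 and -0.13) and Ebf1 (-0.40 and 0.15) were called in neither comparison. The summed signal of the list was 2589 in Foxo1KO/Foxo1AAA and 2954 in Foxo1AAA, against 1563 and 1085 in Foxo1KO and 999 and 1160 in WT, and Fcer2a, Cr2, Ebf1 and Fcrla were dim on all 6 arrays. Of 9 dendritic cell markers, 4 rose and 1 fell in Foxo1AAA relative to WT, and 4 rose and 2 fell in Foxo1KO/Foxo1AAA relative to Foxo1KO. Of all probe sets, 10.4% rose and 13.2% fell in the first of these, and 14.4% rose and 16.2% fell in the second. Their summed signal was 1143 in Foxo1KO/Foxo1AAA and 1072 in Foxo1AAA, against 961 to 1100 in Foxo1KO and 890 to 1022 in WT, with Xcr1, Clec10a and Ccl17 dim on all arrays. Of the 8 Treg and CD4 T cell markers, 0 were called in Foxo1AAA relative to WT, and 1 fell in Foxo1KO/Foxo1AAA relative to Foxo1KO, the dim Foxp3 (-0.46, limma adjusted p = 0.029). Their summed signal lay between 36134 and 39278 on the 6 arrays.

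Between Foxo1KO and WT, fewer markers were called, where 5.37% of all probe sets rose and 8.34% fell. Lyz2 (0.92) and Cd68 (0.55) rose among the 9 macrophage and monocyte markers, Cd22 (0.69) rose among the 11 B cell markers, and 0 of the 9 dendritic cell markers were called. Cd4 (-0.37, limma adjusted p = 0.036) and Cd5 (-0.40, adjusted p = 0.037) fell among the 8 Treg and CD4 T cell markers. The part of these cells in the class II values was not tested, and in sorted samples fewer or more cells of a type cannot be told apart from less or more RNA per cell.

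**Figure D3:**
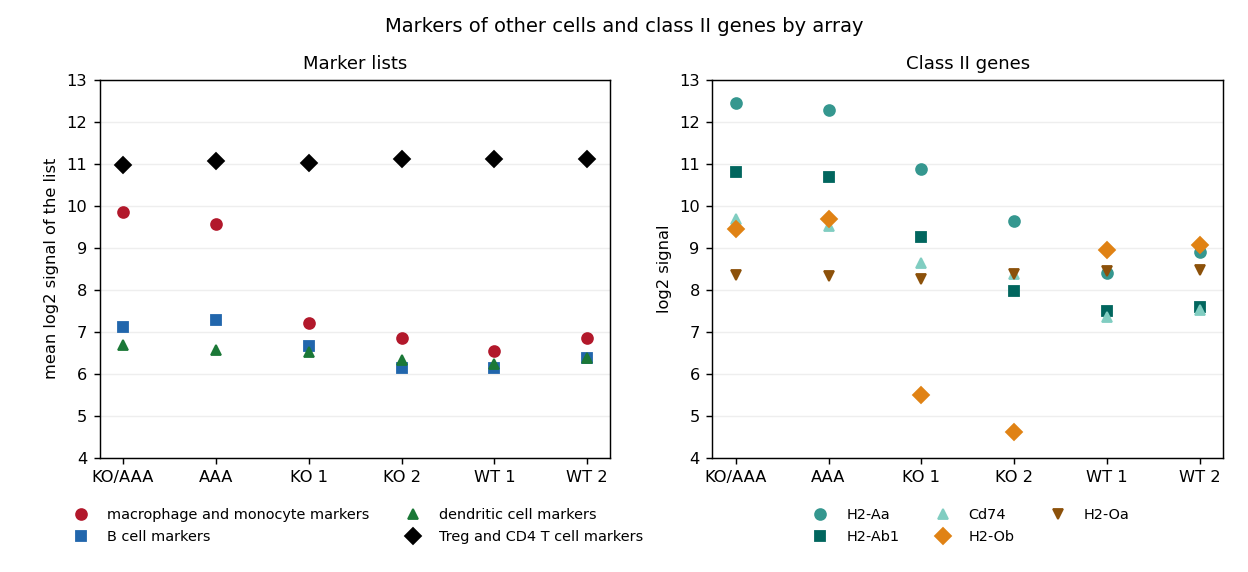
Mean log2 signal of 4 marker lists (left) and log2 signal of 5 class II genes, each in its brightest probe set (right), on the 6 arrays, with replicates of Foxo1KO and WT numbered. The macrophage and monocyte list stands at 9.85 and 9.58 on the arrays with Foxo1AAA and at 6.53 to 7.22 on the others, while the Treg and CD4 T cell list stays between 10.98 and 11.13.

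Genes that act on class II molecules in endosomes moved with the classical chains where Foxo1AAA was present. Of 10 measured, 8 rose in Foxo1AAA relative to WT and 7 in Foxo1KO/Foxo1AAA relative to Foxo1KO, and 0 fell in either, where 10.4% and 14.4% of all probe sets rose. Ctsh, a cathepsin, rose by 3.34 and 3.06 in these comparisons, Marchf1, the ubiquitin ligase that drives class II turnover, by 2.53 and 2.31, the protease gene Lgmn by 1.65 and 2.32, and Ctsl by 1.53 and 2.37 (adjusted p at most 3.1e-04). Ctss, the protease that trims the invariant chain in most antigen-presenting cells, was bright on all arrays (12.95 to 13.17) and was called in no comparison. In Foxo1KO relative to WT, where 5.37% of all probe sets rose and 8.34% fell, 3 of the 10 rose and 3 fell: Ifi30 (0.81), Ctsd (0.58) and Marchf8 (0.47, dim on all arrays) rose, and Cd83 (-0.74), Ctsl (-0.61) and Lgmn (-0.50) fell.

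Few of the transcription factors listed for class II genes were called. Of 10 measured, 2 rose and 1 fell in Foxo1AAA relative to WT, namely Irf8 (0.58), Rfxap (0.48) and Rfx5 (-0.43), with a median of 0.10. This share is near that of all probe sets, of which 23.6% were called there. In Foxo1KO relative to WT, the interferon regulatory factor genes Irf8 (1.53, SE 0.12, limma adjusted p = 8.4e-05) and Irf1 (0.73, adjusted p = 0.0016) rose and 0 fell (5.37% and 8.34% of all probe sets). In Foxo1KO/Foxo1AAA relative to Foxo1KO, 1 of the 10 rose, Spi1 (0.45), and 2 fell, Irf8 (-0.81) and Irf1 (-0.47). Of all probe sets, 30.7% were called there, 14.4% higher and 16.2% lower, so this share is also near that of all. The 3 NF-Y subunit genes Nfya, Nfyb and Nfyc, which bind CCAAT, were called in no comparison.

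Class I presentation genes had yet another pattern, with rises in Foxo1KO relative to WT. Of 12 measured, 8 rose in Foxo1KO relative to WT and 0 fell, with a median of 0.51, where 5.37% of all probe sets rose and 8.34% fell. In Foxo1AAA relative to WT 1 rose (10.4% of all), and in Foxo1KO/Foxo1AAA relative to Foxo1KO 3 fell (16.2% of all). Psmb9 (0.99) and Tap1 (0.84), of the immunoproteasome and the peptide transporter, led the rises, followed by Tap2 (0.81) and H2-M3 (0.70).

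H2-Ob thus differed from the genes on both its sides. On chromosome 17 of GRCm38.p6 it spans 34238905 to 34245908, between Tap2 (34204479 to 34216321) and H2-Ab1 (34263227 to 34269418), with Gm20506 (34247335 to 34259341) the only annotated gene between H2-Ob and H2-Ab1. Foxo1KO minus WT was 0.81 for Tap2 (limma adjusted p = 0.011), -3.95 for H2-Ob and 1.09 for the brightest H2-Ab1 probe set. Tap2 measured 10.47 in Foxo1KO/Foxo1AAA, 10.14 in Foxo1AAA, 10.36 and 10.74 in Foxo1KO, and 9.93 and 9.55 in WT. Of 11 measured neighbours in the class II region, 4 rose in Foxo1KO relative to WT (Psmb9, Tap1, Tap2 and Psmb8, all of which also belong to the class I list) and 0 fell, where 5.37% of all probe sets rose and 8.34% fell. H2-Eb2, a class II beta gene outside the set, lay between 7.65 and 8.27 on the 6 arrays and was called in no comparison. Ciita lies on chromosome 16 (10480014 to 10531064) and Cd74 on chromosome 18 (60803849 to 60812652), away from the other members.

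The likeness of whole patterns was described by Pearson's r of log2 values over the 6 arrays, among 418 genes with a range of at least 2 log2 units. H2-Ob was most like Btbd11, Ms4a6c and Mcoln3 (r = 0.998 each), Trio and Il6ra (0.997 each). Il6ra, the interleukin-6 receptor alpha chain, measured 10.65 in Foxo1KO/Foxo1AAA, 10.74 in Foxo1AAA, 8.90 and 8.72 in Foxo1KO, and 10.52 and 10.58 in WT. Against the other class II members, H2-Ob had r = 0.459 with Ciita, 0.432 with H2-Oa, 0.315 with H2-Ab1, 0.267 with H2-Eb1, 0.249 with H2-DMb2, 0.211 with H2-Aa, 0.127 with Cd74 and -0.077 with H2-DMa. H2-Aa was most like Mzb1 (0.997), Lyz1 and the immunoglobulin light chain gene Iglv1 (0.990 each), the NK cell receptor gene Klrd1 (0.986) and Plac8 (0.984). Within the set, H2-Aa had r = 0.997 with H2-Eb1, 0.991 with H2-Ab1, 0.986 with Cd74, 0.943 with H2-DMa, 0.935 with H2-DMb2, 0.77 with Ciita and -0.717 with H2-Oa. H2-DMa, H2-DMb2, Ciita and H2-Oa had ranges of 1.39, 0.48, 0.56 and 0.22 log2 units, so they were not among the 418 genes. The 6 arrays fall into few groups, so such values mainly state the order of the groups.

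**Figure D4:**
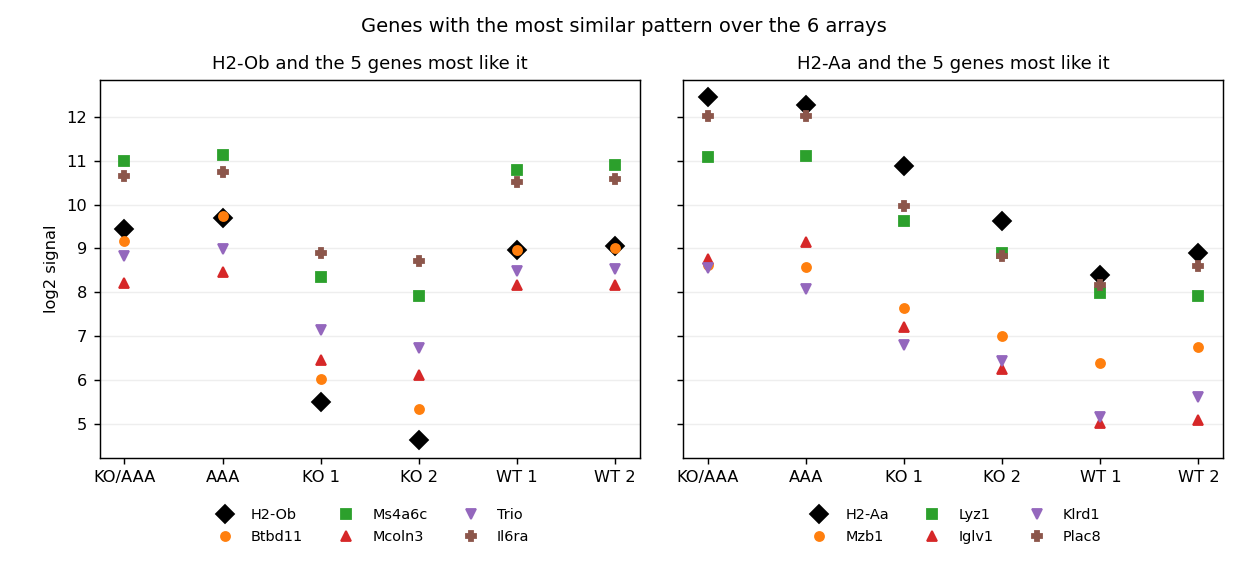
Log2 signal of H2-Ob (left) and H2-Aa (right), each with the 5 genes outside the set whose pattern over the 6 arrays is most like it, with replicates of Foxo1KO and WT numbered. The genes on the left are low on the 2 Foxo1KO arrays alone, and those on the right are high on the 2 arrays with Foxo1AAA and lowest in WT.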

How the data were processed

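Transcripts of sorted Treg cells were measured on 6 one-colour arrays of 45101 probe sets. The deposited values are log2 signals. RMA, R 2.15 and limma 3.12.1 are named in the submitters' processing notes. RMA corrects background, gives all arrays nearly the same distribution and summarises probes, so a shift common to most transcripts would be hidden. No detection calls were used, and the number of arrays limits the precision. Genes were named through the platform annotation, updated with RefSeq: 34958 probe sets had 1 gene, 932 several and 9211 none listed.

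Every probe set entered a limma fit (limma 3.58.1, R 4.3.3) with a coefficient for each group. The residual spread had 2 degrees of freedom from the WT and Foxo1KO pairs, and the prior had 6.54. Calls used a two-sided Benjamini-Hochberg adjusted p under 0.05 over all probe sets. The procedure was tested on simulated data. Lists of other genes used the brightest probe set of each gene. Some listed genes were not analysed here. Named genes were the members, at most 4 of each list with the largest differences, genes whose count was small or whose role is described, Tap2 and the 5 genes most like H2-Ob or H2-Aa. C1qb, Csf1r, Ms4a1, Il6ra, Ctss, the NF-Y genes and H2-Eb2 were chosen for display after their values were seen. The members and lists were chosen with earlier results of these data known. Alternatives changed the filter on dim probe sets, 1 probe set a gene, the variance prior, median centring, the replicate block and single replicates.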

Additional observations from a re-analysis of the deposited data

Results flagged for a closer look

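In 4 probe sets both Foxo1KO arrays lay on one side of both WT arrays while Foxo1KO/Foxo1AAA lay on the other side of Foxo1AAA, and the difference between the 2 comparisons was not tested. For H2-Eb1 the log2 difference was -0.02 between Foxo1KO/Foxo1AAA and Foxo1AAA and 1.18 between Foxo1KO and WT. The dimmest H2-DMb2 probe set differed by -0.05 with Foxo1AAA and by 0.59 without it. H2-Oa differed by 0.01 with Foxo1AAA and by -0.15 without it, and the probe set shared by H2-Ob and Gm20506 by 0.10 and -0.60. Each of the 4 differences with Foxo1AAA was smaller than its SE, so their signs are not fixed.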

How the results depend on the processing

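All 223 values of member probe sets in Foxo1KO/Foxo1AAA relative to Foxo1AAA under the alternatives stayed without a call. Foxo1KO minus WT had no test for the members. Without Foxo1KO replicate 1 it was positive in 13 of the 20 probe sets that do not name H2-Ob, against 19 in the main fit. The negative ones included 2 H2-Ab1 probe sets (-0.16 and -0.29). In Foxo1AAA relative to WT, 3 alternatives ended a member's call and 1 made one, and in Foxo1KO/Foxo1AAA relative to Foxo1KO 5 ended one and 5 made one. None reversed a call. Member probe sets called, leaving aside those that name H2-Ob, numbered 15 in Foxo1AAA relative to WT (14 to 15 without 1 replicate) and 14 in Foxo1KO/Foxo1AAA relative to Foxo1KO (13 to 16). With a robust prior the counts were lower, at 13 and 11 of 20, where 10756 and 13925 of all 45101 probe sets were called. With 1 probe set a gene and the lowest 25% left out, which leaves 8 genes to count, they were 5 and 5. In that setting 3758 and 5430 of all 13645 features were called.

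Over all probe sets, calls in Foxo1KO/Foxo1AAA relative to Foxo1AAA numbered 25, against 10 with 1 probe set a gene, 9 and 2 with the lowest 25% and 50% of probe sets left out, 164 with a trended prior, 142 with arrays centred on the median, 8 with the replicate block and 8 to 127 without 1 replicate (8 without either Foxo1KO array, 127 without either WT array). The cause was not tested. With 1 probe set a gene and the lowest 25% left out, only 13645 features were tested. Of these, 3758, 5430 and 2980 were called in Foxo1AAA minus WT, Foxo1KO/Foxo1AAA minus Foxo1KO and Foxo1KO minus WT. The main counts were 10647, 13826 and 6187 of 45101 (23.6%, 30.7% and 13.7%). With the lowest 50% left out, the first 2 were 6023 and 8279 of 22550. These filters lowered the number tested, so a smaller count is not a smaller share. Without 1 replicate the counts ranged from 6919 to 9186, 8626 to 13642 and 3408 to 4504, lowest without WT replicate 2 in the first and without Foxo1KO replicate 1 in the others.

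The replicate block gave 7282, 10643 and 4806 calls over all probe sets and 15 and 15 among the members. The 2 numbers do not establish pairs: replicate 1 minus replicate 2 correlated at r = -0.0953 over probe sets between Foxo1KO and WT, although replicate 1 had Xist without Eif2s3y in both groups. Counting only probe sets with 1 gene, an alternative chosen after seeing the data, left 13 of 18 and 12 of 18 called. These are counts in Foxo1AAA relative to WT and Foxo1KO/Foxo1AAA relative to Foxo1KO, where 23.6% and 30.7% of all probe sets were called. Dim probe sets limit what can be said of Ciita and of H2-Ob in Foxo1KO.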
